A study of Mus musculus with 7 samples.

Results

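The genes described here are the 8 triglyceride synthesis genes Gpam, Agpat2, Agpat3, Lpin1, Lpin2, Lpin3, Dgat1 and Dgat2, picked by name from a deposited count table of 34745 mouse genes, of which 21370 had at least 1 count. All 8 were found, and all 8 were above 1 CPM (counts scaled to library size) in every library. RNA sequencing was performed on 3T3-L1, a mouse fibroblast line that can be turned into fat cells with insulin, dexamethasone and IBMX, at day 8 to 10 after the start of differentiation. The treated cells had been exposed for 48 h to exosomes, small vesicles released by adipose tissue (AT-Exos). The question was how the donor's diet and depot bear on the recipient cells.

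There were 7 groups of 1 library each. The 6 exosome groups were HFD-iWAT-Exos, LFD-iWAT-Exos, HFD-vWAT-Exos, LFD-vWAT-Exos, HFD-BAT-Exos and LFD-BAT-Exos, named after a high-fat (HFD) or low-fat (LFD) diet and after inguinal white (iWAT), visceral white (vWAT) or brown (BAT) fat of wild-type C57BL/6 donor mice. Control cells are labelled as having had no treatment, although the study's supplementary legends name PBS, so an effect of the vehicle cannot be told apart from that of the exosomes. All groups shared the same wild-type cell line and differentiation protocol, and the number of donor mice behind an exosome batch is not given. The study's methods speak of repeat assays for each exosome type, without saying whether a library pools them, and 1 library per group is analysed here. A difference between 2 groups therefore has no replicate check, and the 95% intervals below cover counting error only.

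Total counts ranged from 13.5 M to 24.3 M per library. LFD-vWAT-Exos was the library with 13.5 M counts, and mitochondrially encoded genes took 1.10% of its counts, against 2.19% to 2.60% in the others. It stood apart from the rest: 3609 to 3842 genes differed at least 2-fold and beyond counting error in each of the 6 pairs that hold it, against 210 to 644 genes in the 15 pairs that do not. Of 11 adipocyte markers, 8 were under 1 CPM in every library, among them Adipoq, Cfd, Plin1, Cebpa and Cidec, so the defining genes of mature fat cells were absent or near 0. Pparg (12.5 to 21.5 CPM), Fabp4 (75.0 to 174 CPM) and Lpl (216 to 1212 CPM) were present. Lpl was lowest with LFD-vWAT-Exos (216 CPM, against 926 to 1212 CPM elsewhere), while Pparg was highest there (21.5 CPM, against 12.5 to 14.2 CPM). Fabp4 was lowest there too (75.0 CPM, against 78.4 to 174 CPM). The sum over 7 preadipocyte and fibroblast markers was 15583 CPM with LFD-vWAT-Exos, against 31298 to 38299 CPM elsewhere. Col1a1, Col1a2 and Fn1 made up most of that sum, and Pdgfra changed little (1154 CPM, against 1190 to 1329 CPM). In bulk RNA, fewer cells of a type and less RNA per cell cannot be told apart.

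Triglyceride is made in steps from glycerol 3-phosphate. Gpam, a glycerol-3-phosphate acyltransferase of the mitochondrial outer membrane, adds the first fatty acid, and Agpat2 and Agpat3 add the next one to give phosphatidate. The lipins Lpin1, Lpin2 and Lpin3 remove the phosphate to give diacylglycerol, which Dgat1 and Dgat2 convert into triglyceride. Loss of AGPAT2 causes generalized lipodystrophy in humans, loss of Lpin1 causes lipodystrophy in mice, and lipin 1 can also act in the nucleus as a transcriptional coregulator.

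In the GRCm38 annotation (GENCODE M21), matched by symbol and identifier, the genes lie on 7 chromosomes. Gpam (ENSMUSG00000024978) is at chr19:55067268-55127238 and Lpin1 (ENSMUSG00000020593) at chr12:16535669-16610966, both on the minus strand. Lpin2 (ENSMUSG00000024052) is at chr17:71182560-71249817 and Lpin3 (ENSMUSG00000027412) at chr2:160880670-160906002, both on the plus strand. Agpat2 (ENSMUSG00000026922, chr2:26593057-26604417), Agpat3 (ENSMUSG00000001211, chr10:78269178-78352489), Dgat1 (ENSMUSG00000022555, chr15:76502015-76511953) and Dgat2 (ENSMUSG00000030747, chr7:99153658-99182719) are on the minus strand. None shares enough sequence with another gene to make its counts uncertain. The largest overlap was in Agpat2, with 3.00% of its exon bases also in Egfl7.

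The promoters of Lpin2, Lpin1 and Gpam, the genes that LFD-vWAT-Exos set farthest above the next highest library, are shown first, followed by those of Agpat2 and Agpat3, which were lowest in that library. Each is the 250 bases before a transcription start in RefSeq (GRCm38.p6), 5′ to 3′ on the gene's strand with motif matches in capitals. The motifs, searched on both strands, were the E-box (CACGTG), the CCAAT box (CCAAT, which reads ATTGG on the opposite strand) and the GC box (GGGCGG, which reads CCGCCC on the opposite strand). No printed matches overlap except the 2 GC boxes of Agpat2, which share 1 base. The windows are chr17:71183282-71183531 (Lpin2, plus strand), chr12:16610967-16611216 (Lpin1, minus), chr19:55127239-55127488 (Gpam, minus), chr2:26604418-26604667 (Agpat2, minus) and chr10:78351701-78351950 (Agpat3, minus).
Lpin2: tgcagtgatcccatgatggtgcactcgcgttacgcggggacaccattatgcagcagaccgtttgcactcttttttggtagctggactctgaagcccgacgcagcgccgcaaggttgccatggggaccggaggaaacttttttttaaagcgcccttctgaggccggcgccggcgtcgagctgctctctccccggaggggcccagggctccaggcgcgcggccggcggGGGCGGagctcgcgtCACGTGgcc
Lpin1: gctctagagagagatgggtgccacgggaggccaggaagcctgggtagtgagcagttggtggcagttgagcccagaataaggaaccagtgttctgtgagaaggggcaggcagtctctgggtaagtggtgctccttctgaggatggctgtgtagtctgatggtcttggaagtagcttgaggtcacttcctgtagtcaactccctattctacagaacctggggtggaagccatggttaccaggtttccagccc
Gpam: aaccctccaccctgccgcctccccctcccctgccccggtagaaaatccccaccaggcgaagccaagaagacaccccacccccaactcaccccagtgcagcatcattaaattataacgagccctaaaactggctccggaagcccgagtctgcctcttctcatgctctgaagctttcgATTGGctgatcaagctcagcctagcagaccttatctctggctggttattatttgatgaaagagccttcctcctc
Agpat2: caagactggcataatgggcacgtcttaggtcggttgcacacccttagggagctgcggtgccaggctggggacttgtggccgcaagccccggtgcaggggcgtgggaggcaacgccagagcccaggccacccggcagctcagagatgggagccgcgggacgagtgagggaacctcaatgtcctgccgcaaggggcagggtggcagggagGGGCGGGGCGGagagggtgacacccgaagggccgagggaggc
Agpat3: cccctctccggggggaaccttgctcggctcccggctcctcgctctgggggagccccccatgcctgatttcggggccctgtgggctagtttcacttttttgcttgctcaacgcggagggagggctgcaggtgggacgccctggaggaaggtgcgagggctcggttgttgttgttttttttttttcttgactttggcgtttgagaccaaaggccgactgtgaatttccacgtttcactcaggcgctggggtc

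The Lpin2 window held an E-box 9 bases and a GC box 24 bases before the start, the Gpam window a CCAAT box 74 bases before it, and the Agpat2 window GC boxes 42 and 37 bases before it. No match was found in the Lpin1 and Agpat3 windows. Among 32851 windows of the same length in the table, 6.02% held the E-box, 33.8% the CCAAT box and 32.7% the GC box, so a CCAAT or GC box is common. These matches describe letters, not bound sites. The table gave 10 starts for 6 of the 8 genes. Dgat1 and Dgat2 had no entry. Other starts of the same gene differed: of 3 Lpin2 starts the other two held a GC box in one case and 3 CCAAT boxes in the other.

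Gpam, an enzyme of the entry step, was the steadiest of the 8 genes outside 1 library. It was at 26.7 CPM with HFD-iWAT-Exos, 28.0 CPM with LFD-iWAT-Exos, 29.2 CPM with HFD-vWAT-Exos, 52.0 CPM with LFD-vWAT-Exos, 26.7 CPM with HFD-BAT-Exos, 27.0 CPM with LFD-BAT-Exos and 26.7 CPM in the control (CPM here are counts scaled to library total and TMM factor). Without LFD-vWAT-Exos, the highest library was 1.09-fold above the lowest (0.974 to 1.22), an interval that includes equal levels. For comparison, 11059 genes with at least 50 counts in each of these 6 libraries had a median of 1.27 between highest and lowest, with quartiles of 1.18 and 1.45. Gpat4, another glycerol-3-phosphate acyltransferase, had 108.6 to 123.1 CPM in these 6 libraries and 200.1 CPM with LFD-vWAT-Exos.

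Agpat2 and Agpat3 were lowest where Gpam was highest. Their relatives differed there: Agpat1 (83.8 CPM, against 66.6 to 76.3 CPM) and Agpat5 (110.0 CPM, against 35.7 to 44.4 CPM) were highest. Agpat4 was lowest (34.5 CPM, against 35.0 to 41.7 CPM). Agpat2 was at 17.1 CPM with HFD-iWAT-Exos, 20.8 CPM with LFD-iWAT-Exos, 25.8 CPM with HFD-vWAT-Exos, 15.7 CPM with LFD-vWAT-Exos, 19.5 CPM with HFD-BAT-Exos, 20.6 CPM with LFD-BAT-Exos and 22.1 CPM in the control. Every neighbour in this order of levels overlapped with the next in its counting interval, and LFD-vWAT-Exos and HFD-iWAT-Exos were such neighbours at the low end. Even so, HFD-vWAT-Exos lay 1.50-fold (1.31 to 1.73) above HFD-iWAT-Exos. Agpat3 was at 45.1 CPM with HFD-iWAT-Exos, 46.6 CPM with LFD-iWAT-Exos, 53.8 CPM with HFD-vWAT-Exos, 42.0 CPM with LFD-vWAT-Exos, 62.0 CPM with HFD-BAT-Exos, 59.9 CPM with LFD-BAT-Exos and 56.4 CPM in the control. Its levels formed a low set of LFD-vWAT-Exos and both iWAT libraries and a high set of the other 4, and the only step without overlap lay between LFD-iWAT-Exos and HFD-vWAT-Exos.

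The 3 lipins had their highest level with LFD-vWAT-Exos. Lpin2 was at 54.0 CPM with HFD-iWAT-Exos, 59.6 CPM with LFD-iWAT-Exos, 48.7 CPM with HFD-vWAT-Exos, 152.6 CPM with LFD-vWAT-Exos, 53.2 CPM with HFD-BAT-Exos, 43.7 CPM with LFD-BAT-Exos and 47.8 CPM in the control. Lpin1 was at 42.7 CPM with HFD-iWAT-Exos, 33.6 CPM with LFD-iWAT-Exos, 43.4 CPM with HFD-vWAT-Exos, 93.8 CPM with LFD-vWAT-Exos, 47.0 CPM with HFD-BAT-Exos, 38.0 CPM with LFD-BAT-Exos and 40.5 CPM in the control. Both were well above all other libraries there, and each of the other 6 levels overlapped with its neighbour. The ends of these 6 still differed beyond counting error. The highest was 1.40-fold (1.28 to 1.54) above the lowest for Lpin1 and 1.36-fold (1.26 to 1.48) for Lpin2. Lpin3, the least abundant lipin, was at 9.48 CPM with HFD-iWAT-Exos, 13.3 CPM with LFD-iWAT-Exos, 10.8 CPM with HFD-vWAT-Exos, 19.0 CPM with LFD-vWAT-Exos, 9.57 CPM with HFD-BAT-Exos, 8.18 CPM with LFD-BAT-Exos and 6.67 CPM in the control. Unlike the other lipins, it was lowest in the control, and LFD-iWAT-Exos lay 2.00-fold (1.64 to 2.44) above the control.

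The final step differed between its 2 enzymes. Dgat1 was at 30.9 CPM with HFD-iWAT-Exos, 32.5 CPM with LFD-iWAT-Exos, 38.4 CPM with HFD-vWAT-Exos, 34.9 CPM with LFD-vWAT-Exos, 36.5 CPM with HFD-BAT-Exos, 33.6 CPM with LFD-BAT-Exos and 34.2 CPM in the control. All neighbours overlapped, although HFD-vWAT-Exos lay 1.24-fold (1.11 to 1.39) above HFD-iWAT-Exos. Dgat2 was at 19.0 CPM with HFD-iWAT-Exos, 24.9 CPM with LFD-iWAT-Exos, 19.3 CPM with HFD-vWAT-Exos, 32.1 CPM with LFD-vWAT-Exos, 22.2 CPM with HFD-BAT-Exos, 18.8 CPM with LFD-BAT-Exos and 16.2 CPM in the control. Dgat2 thus had the same highest, next highest and lowest library as Lpin3, while Dgat1 was the only one of the 8 genes for which LFD-vWAT-Exos lay inside the range of the other libraries.

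**Figure D1:**
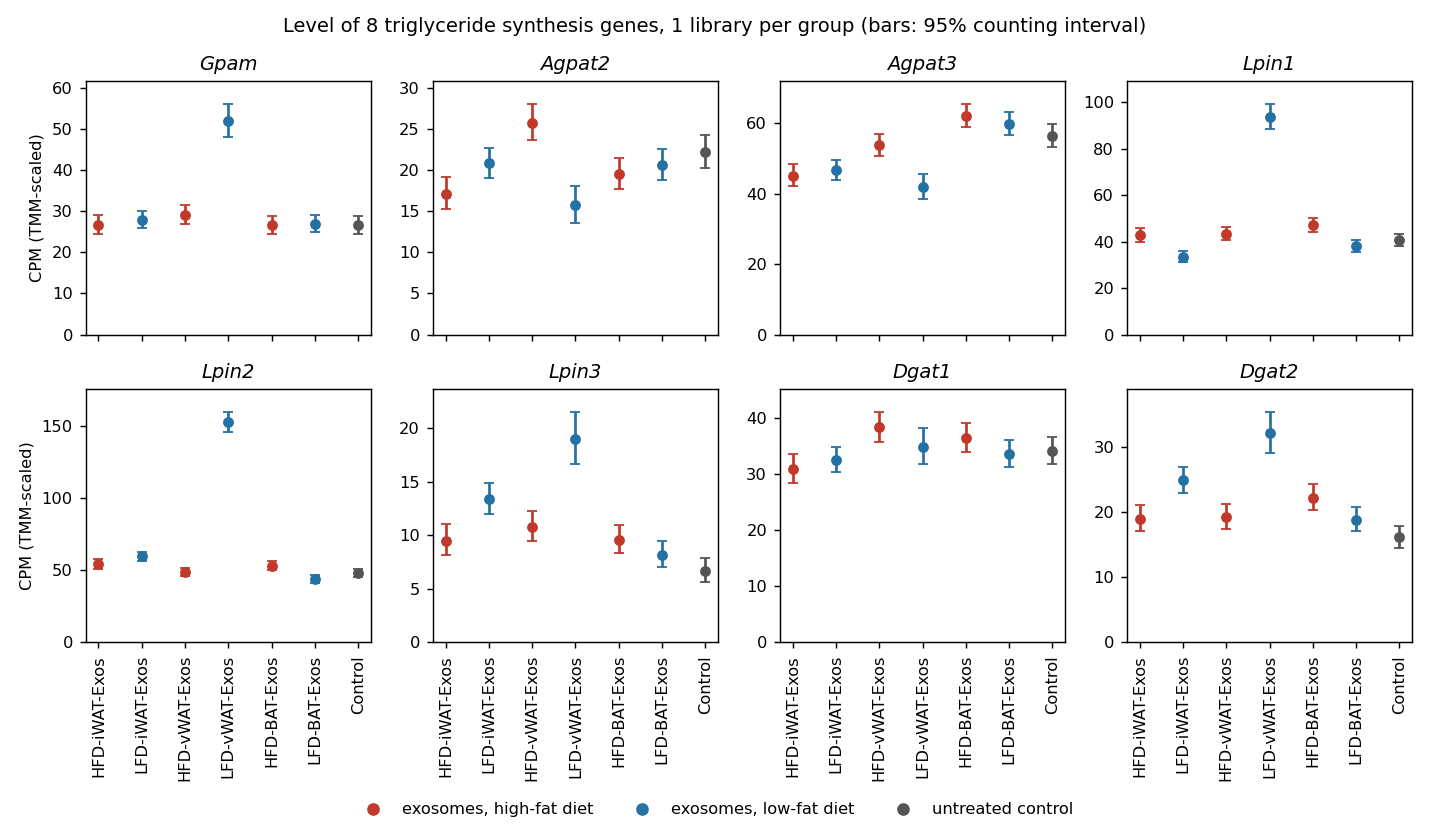
Level of each gene (CPM, linear axis from 0) in the 7 libraries, with points for single libraries and bars for the 95% counting interval. With LFD-vWAT-Exos, Lpin2 (152.6 CPM), Lpin1 (93.8 CPM) and Gpam (52.0 CPM) lie far above the other libraries, while Dgat1 stays between 30.9 and 38.4 CPM throughout.

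LFD-vWAT-Exos lay above all other libraries for 5 of the 8 genes (38.0% of 12935 genes with at least 1 CPM in any library did so) and below them for 2 (41.9%). Since 79.9% of all genes lay outside the range of the other libraries in 1 direction or the other, 7 of 8 is close to the background. Over the median of the other 6 libraries, LFD-vWAT-Exos was at 3.00 times for Lpin2, 2.25 times for Lpin1, 1.99 times for Lpin3, 1.94 times for Gpam, 1.68 times for Dgat2 and 1.03 times for Dgat1. It was at 0.758 times for Agpat2 and 0.762 times for Agpat3. Of 6 macrophage markers, 3 were higher in this library, with Cd68 at 13.9 CPM against 3.47 to 6.32 CPM in the others, Csf1r at 11.7 CPM against 0.541 to 1.09 CPM and Mrc1 at 9.98 CPM against 0.496 to 2.43 CPM. Lyz2 (4.52 CPM) lay inside the 3.05 to 5.03 CPM of the others, Ptprc (0.234 CPM) and Adgre1 (0.0780 CPM) were near 0, and the 6 summed to 40.4 CPM, against 9.37 to 13.6 CPM. Endothelial markers summed to 2.96 CPM against 0.638 to 1.27 CPM. Of 5 skeletal muscle markers 4 were under 1 CPM in every library, and Tnnt3 had 0.468 CPM with LFD-vWAT-Exos, against 7.16 to 10.6 CPM elsewhere. The part of these, of the lower depth and of the lower mitochondrial share in the levels of the 8 genes was not tested.

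Ratios within a library do not depend on scaling between libraries. The Dgat2 to Dgat1 ratio of counts was 0.615 (0.536 to 0.704) with HFD-iWAT-Exos, 0.766 (0.688 to 0.852) with LFD-iWAT-Exos, 0.502 (0.445 to 0.565) with HFD-vWAT-Exos, 0.920 (0.803 to 1.05) with LFD-vWAT-Exos, 0.610 (0.544 to 0.684) with HFD-BAT-Exos, 0.561 (0.497 to 0.632) with LFD-BAT-Exos and 0.473 (0.416 to 0.537) in the control. The LFD-iWAT-Exos and LFD-vWAT-Exos libraries thus had the 2 highest ratios and the control the lowest. The Lpin2 to Lpin1 ratio was also highest in these 2 libraries, at 1.78 (1.63 to 1.94) with LFD-iWAT-Exos and 1.63 (1.51 to 1.75) with LFD-vWAT-Exos, against 1.12 to 1.26 in the other 5. The Gpam to Agpat2 ratio was 3.32 (2.83 to 3.90) with LFD-vWAT-Exos and 1.13 to 1.56 in the rest. These compare counts and not molecules per length.

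**Figure D2:**
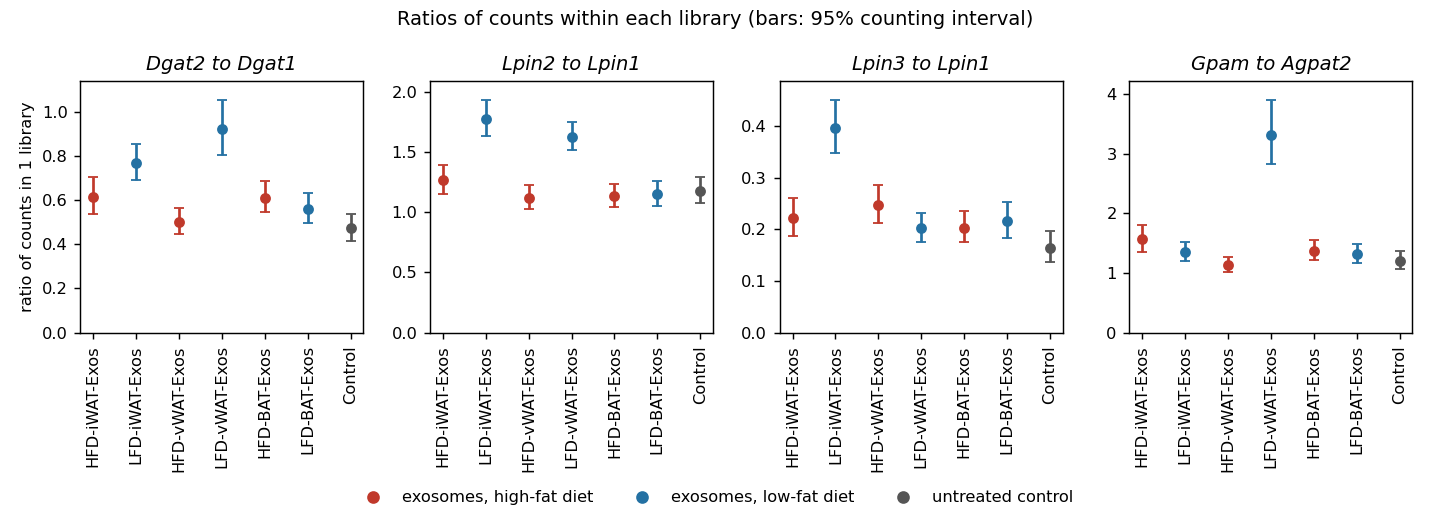
Ratio of the counts of 2 genes within each library (linear axes from 0), with bars for the 95% counting interval. Dgat2 to Dgat1 and Lpin2 to Lpin1 are highest with LFD-iWAT-Exos and LFD-vWAT-Exos, Lpin3 to Lpin1 is highest with LFD-iWAT-Exos (0.397), and Gpam to Agpat2 is highest with LFD-vWAT-Exos (3.32).

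The effect of the donor's diet was first read within each depot. A gene is called apart here when its log2 ratio is at least 1 in size and its counting interval leaves out equality. With HFD-vWAT-Exos, Lpin2 was 3.14-fold lower (2.91 to 3.38, log2 ratio -1.65) and Lpin1 2.16-fold lower (1.98 to 2.35, log2 ratio -1.11) than with LFD-vWAT-Exos, and these 2 of 8 genes were apart. Of all 12619 genes, 29.6% were apart in this pair in either direction, which is near the share among the 8. Both genes were lower, and 12.0% of all genes were apart and lower. A count of 2 among 8 is too small to set against that share. The log2 ratio was -0.83 for Gpam, -0.81 for Lpin3, -0.73 for Dgat2, 0.71 for Agpat2, 0.36 for Agpat3 and 0.14 for Dgat1, and only the interval of Dgat1 included equality. The median of the 8 was -0.77, and that of all genes 0.04. With deposited FPKM plus 1, Lpin1 (-0.95) was no longer apart. Its FPKM before that addition was 7.59 with HFD-vWAT-Exos and 15.6 with LFD-vWAT-Exos, so the added 1 brings the ratio closer to equality.

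In the other depots the diet ratios lay closer to 1. None of the 8 genes was apart with HFD-iWAT-Exos against LFD-iWAT-Exos, where 2.54% of genes were, or with HFD-BAT-Exos against LFD-BAT-Exos, where 1.97% were. Lpin1 was 1.27-fold higher (1.15 to 1.41) with HFD-iWAT-Exos than with LFD-iWAT-Exos and 1.24-fold higher (1.13 to 1.36) with HFD-BAT-Exos than with LFD-BAT-Exos, the opposite direction to vWAT. Lpin3 was at 0.711 times (0.587 to 0.858) and Dgat2 at 0.763 times (0.666 to 0.872) the LFD level in iWAT, whereas in BAT they were at 1.17 times (0.955 to 1.43) and 1.18 times (1.03 to 1.35). Lpin2 was at 0.907 times (0.836 to 0.984) in iWAT and 1.22 times (1.12 to 1.33) in BAT. With single libraries, these differences between depots were not tested.

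**Figure D3:**
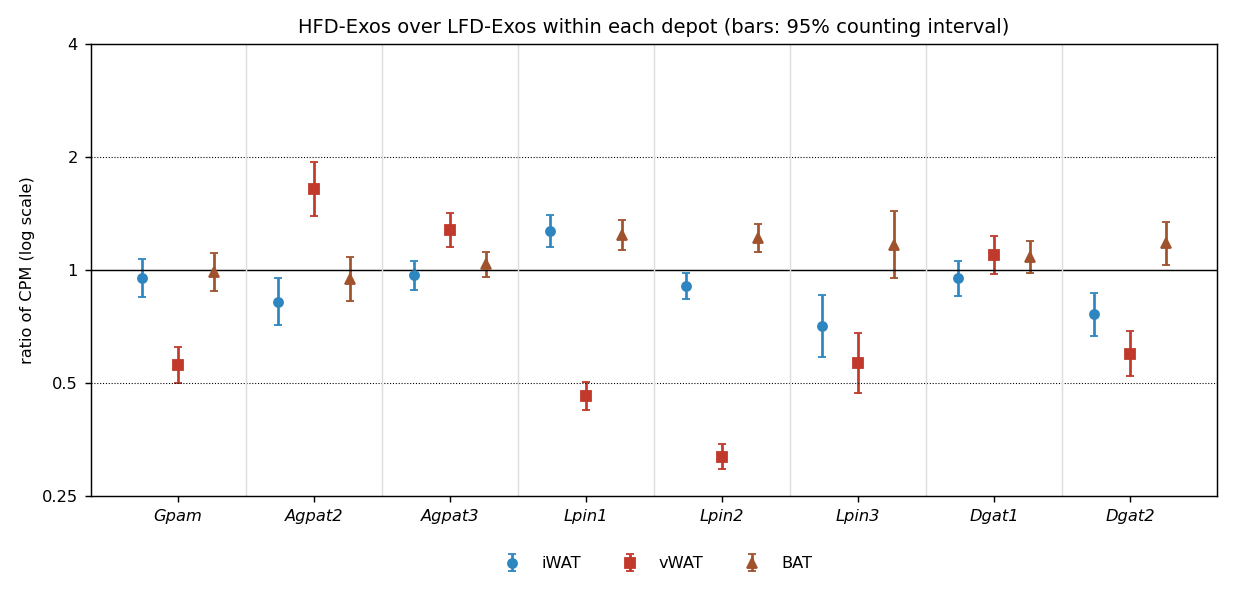
Ratio of CPM with HFD-Exos over LFD-Exos (log axis) for each gene in iWAT, vWAT and BAT, with bars for the 95% counting interval and dotted lines at 0.5 and 2. Only Lpin1 and Lpin2 in vWAT lie below 0.5, and Lpin1 lies above 1 in iWAT and BAT.

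Taking the 3 depots as repeats, edgeR's quasi-likelihood F test for diet, with depot as a block, called none of the 8 genes and 0 of 13441 genes (0.00% of the table) at a Benjamini-Hochberg adjusted p of 0.05. At an unadjusted p of 0.05 it passed 73 genes and none of the 8, while DESeq2 called 8 genes and limma-voom 0, none of them among the 8. The log2 difference HFD minus LFD was -0.50 ± 0.43 for Lpin2 (SE, edgeR adjusted p = 0.888), -0.38 ± 0.28 for Lpin3, -0.32 ± 0.24 for Gpam, -0.31 ± 0.26 for Dgat2 and -0.16 ± 0.36 for Lpin1. With both vWAT libraries left out, Lpin1 turned to 0.33 and Lpin2 to 0.07. The fit has 2 residual degrees of freedom, and these p-values measure only the spread between these libraries. Its common dispersion, the fitted spread beyond counting error, was 0.0933, against 0.0206 without both vWAT libraries. The 73 genes are fewer than an unadjusted p of 0.05 would pass with no effect at all. The absence of calls therefore says little about diet.

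Against the control, 3 of the 8 genes (Lpin3, Dgat2 and Gpam) were higher in all 6 exosome libraries, as were 12.4% of all genes, and all 6 ratios share the 1 control library. Lpin3 was 1.42-fold (1.13 to 1.78) higher with HFD-iWAT-Exos, 2.00-fold (1.64 to 2.44) with LFD-iWAT-Exos, 1.61-fold (1.31 to 2.00) with HFD-vWAT-Exos, 2.84-fold (2.31 to 3.51) with LFD-vWAT-Exos, 1.43-fold (1.16 to 1.78) with HFD-BAT-Exos and 1.23-fold (0.983 to 1.53) with LFD-BAT-Exos. Dgat2 was 1.17-fold (1.01 to 1.37) higher with HFD-iWAT-Exos, 1.54-fold (1.35 to 1.76) with LFD-iWAT-Exos, 1.19-fold (1.03 to 1.38) with HFD-vWAT-Exos, 1.99-fold (1.72 to 2.29) with LFD-vWAT-Exos, 1.37-fold (1.20 to 1.58) with HFD-BAT-Exos and 1.16-fold (1.01 to 1.34) with LFD-BAT-Exos. Among the intervals of these genes, that of Lpin3 with LFD-BAT-Exos included equality. The Gpam ratio to the control lay between 1.00 and 1.09 in the 5 libraries other than LFD-vWAT-Exos, all with intervals that include equality, and its direction turned with DESeq2 size factors for HFD-iWAT-Exos and with total counts or deposited FPKM for HFD-BAT-Exos.

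Apart from the control were 3 of 8 genes with LFD-vWAT-Exos, where 30.5% of genes were apart and 13.2% were apart and higher. Lpin2 was 3.19-fold (2.96 to 3.44), Lpin3 2.84-fold and Lpin1 2.31-fold (2.12 to 2.52) higher. With deposited FPKM plus 1, Lpin3 (log2 ratio 0.95) was no longer apart. Its FPKM before that addition was 3.36 with LFD-vWAT-Exos and 1.25 in the control, so the added 1 lowers the ratio. Dgat2 (log2 ratio 0.98) and Gpam (0.96) fell just short of the 2-fold mark, as did Lpin3 with LFD-iWAT-Exos (0.99). None of the 8 was apart with HFD-iWAT-Exos (2.91% of genes), LFD-iWAT-Exos (5.12%), HFD-vWAT-Exos (1.99%), HFD-BAT-Exos (2.27%) or LFD-BAT-Exos (1.76%). Agpat2 was at 0.774 times (0.669 to 0.894) and Agpat3 at 0.800 times (0.731 to 0.874) the control with HFD-iWAT-Exos, and Agpat3 at 0.826 times (0.762 to 0.896) with LFD-iWAT-Exos.

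**Figure D4:**
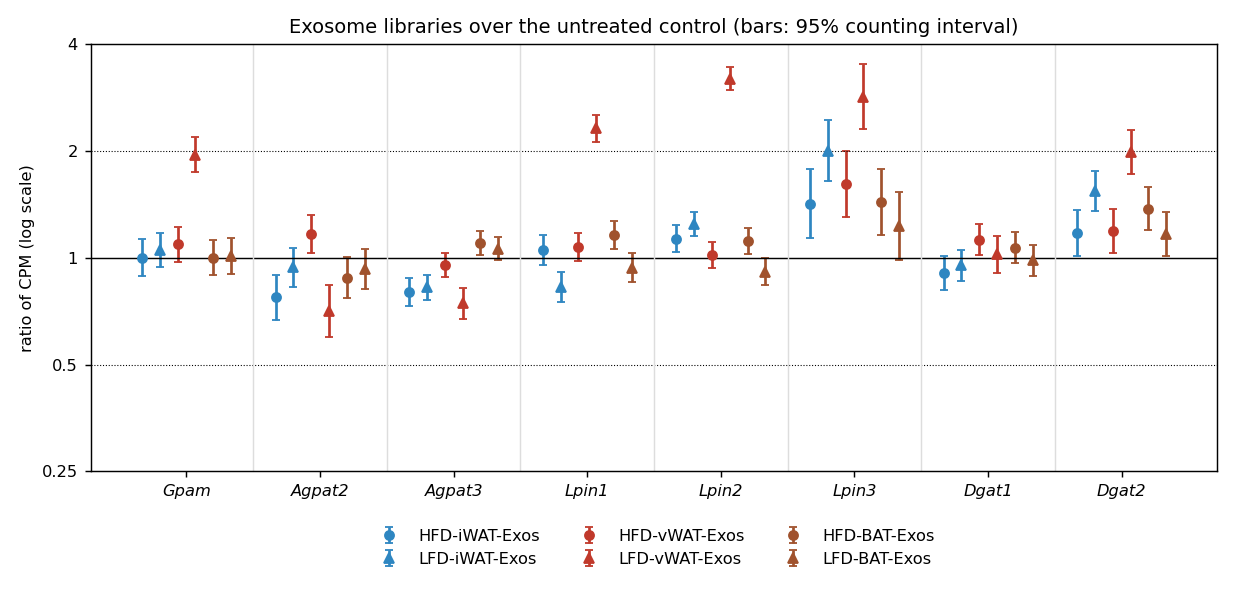
Ratio of CPM with each exosome preparation over the untreated control (log axis), with bars for the 95% counting interval and dotted lines at 0.5 and 2. All 6 points lie above 1 for Lpin3, Dgat2 and Gpam, although 5 of the Gpam points lie between 1.00 and 1.09 and their direction depends on the scaling for HFD-iWAT-Exos and HFD-BAT-Exos, and LFD-vWAT-Exos is the highest point for Gpam, Lpin1, Lpin2, Lpin3 and Dgat2.

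With the 6 exosome libraries taken as 1 group of unlike repeats against the control, edgeR called 1 of 14102 genes (0.00709%), none of the 8. The log2 difference was 0.81 ± 0.47 for Lpin3 (SE, edgeR adjusted p = 1.00) and 0.49 ± 0.33 for Dgat2 (adjusted p = 1.00), each higher in 6 of 6 libraries. It was 0.52 ± 0.68 for Lpin2 and 0.30 ± 0.52 for Lpin1. Neither DESeq2, with 5 genes called, nor limma-voom, with 1, called any of the 8.

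Donor depots were compared within each diet. With LFD-vWAT-Exos against LFD-iWAT-Exos, 2 of 8 genes were apart (29.0% of all genes, 11.9% apart and higher), Lpin1 at 2.79-fold higher (2.56 to 3.06) and Lpin2 at 2.56-fold higher (2.39 to 2.74). With HFD-vWAT-Exos against HFD-iWAT-Exos, none was apart (2.31%), and the widest ratio was that of Agpat2, 1.50-fold higher (1.31 to 1.73). Agpat3 was higher with BAT-Exos than with iWAT-Exos in both diets. It was 1.37-fold higher (1.26 to 1.50) with HFD-BAT-Exos than with HFD-iWAT-Exos and 1.28-fold higher (1.19 to 1.39) with LFD-BAT-Exos than with LFD-iWAT-Exos. LFD-BAT-Exos was also at 0.614 times (0.510 to 0.737) the LFD-iWAT-Exos level for Lpin3, 0.734 times (0.676 to 0.796) for Lpin2 and 0.756 times (0.667 to 0.857) for Dgat2. No gene of the 8 was apart in either BAT pair, where 1.95% (HFD) and 5.16% (LFD) of genes were.

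Over both diets, edgeR called 0 of 13441 genes (0.00%) for vWAT against iWAT, with 366 at an unadjusted p of 0.05, and 0 (0.00%) for BAT against iWAT, with 124. Both 366 and 124 are fewer than that p would pass with no effect, so the absence of calls says little about depot. DESeq2 called 10 and 2 genes, limma-voom 0 and 0, and none was among the 8. For vWAT against iWAT the log2 difference was 0.82 ± 0.44 for Lpin1 (SE, edgeR adjusted p = 0.777), 0.72 ± 0.51 for Lpin2 and 0.54 ± 0.30 for Gpam. Without the HFD-vWAT-Exos library, the log2 difference was 1.48 for Lpin1, 1.47 for Lpin2 and 0.92 for Gpam. That fit leaves LFD-vWAT-Exos alone for vWAT, so the spread between vWAT libraries is not measured and no call is drawn from it. For BAT against iWAT, Agpat3 had 0.41 ± 0.22 (SE, edgeR adjusted p = 1.00).

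Genes around the route were read from 4 lists of 17, 19, 16 and 15 genes. Of other acyltransferases and genes of precursor supply, 13 of 17 were measured in the pair of vWAT libraries (HFD over LFD), and 2 were apart and higher and 3 apart and lower (median log2 ratio -0.59). Of all 12619 genes in this pair 29.6% were apart, 2222 higher and 1519 lower, so list genes apart are common here. Agpat5, another acylglycerophosphate acyltransferase, was 2.71-fold lower (2.49 to 2.96) and Acsl4, which activates long-chain fatty acids, 2.46-fold lower (2.30 to 2.62). Lclat1, a lysocardiolipin acyltransferase, was 3.03-fold higher (2.74 to 3.35) and Gk, glycerol kinase, 2.19-fold higher (1.62 to 2.99). Among genes that use phosphatidate or diacylglycerol elsewhere, 3 of 16 were apart and higher and 1 apart and lower (median 0.12). Plpp3, a lipid phosphate phosphatase outside the lipin family, was 2.45-fold higher (2.35 to 2.55), so it lay lowest with LFD-vWAT-Exos, where the lipins were highest. Its relative Plpp1, uncertain because 25.8% of its exon bases overlap Mtrex, was 2.27-fold higher (2.10 to 2.46), and the diacylglycerol kinase Dgkh was 2.32-fold lower (1.77 to 3.07). The remaining one, the diacylglycerol kinase Dgki, had 40 counts with HFD-vWAT-Exos, against 0 counts with LFD-vWAT-Exos, so no fold is given.

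Lipid droplet genes, for the storage or the breakdown of triglyceride, were mixed as well. In the same pair, 29.6% of all genes were apart. Of 9 lipid droplet genes measured there, 1 was apart with a higher level and 2 with a lower one (median log2 ratio 0.47). That median does not describe storage alone, since Pnpla2, Lipe and Abhd5 of this list serve breakdown. Pnpla2 (21.7 CPM with HFD-vWAT-Exos, 14.6 CPM with LFD-vWAT-Exos) and Abhd5 (79.9 and 47.0 CPM) were higher with HFD-vWAT-Exos. Lipe (13.4 and 26.5 CPM) was lower. Bscl2, the droplet assembly protein seipin, was 2.75-fold lower (2.17 to 3.49) and the droplet coat protein Plin2 2.65-fold lower (2.54 to 2.76), while Plin4, another coat protein, was 2.65-fold higher (2.39 to 2.94). Of regulators, 12 of 15 were measured and 1 was apart in each direction (median -0.07). Ppargc1a, a coactivator known to raise Lpin1 in mouse heart and liver, was 3.71-fold higher (2.48 to 5.75), and Cebpb, an early adipogenic factor with uncertain counts because its exons overlap Tmem189, was 2.15-fold lower (2.04 to 2.28). All of these pairs carry the LFD-vWAT-Exos library.

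Outside that library few genes of the lists were apart. Against the control, Cebpb was 2.17-fold higher (2.01 to 2.34) with HFD-iWAT-Exos, 2.16-fold (2.01 to 2.33) with HFD-vWAT-Exos, 2.24-fold (2.08 to 2.41) with HFD-BAT-Exos and 2.04-fold (1.89 to 2.19) with LFD-BAT-Exos, and Ppargc1a was 2.37-fold lower (1.82 to 3.10) with LFD-iWAT-Exos. Pcyt1a, the rate-limiting enzyme of phosphatidylcholine synthesis from diacylglycerol, had 32.9 CPM with HFD-BAT-Exos, against 107.8 CPM with LFD-BAT-Exos and 122.6 CPM in the control. This made it 3.28-fold lower (3.02 to 3.57) with HFD-BAT-Exos than with LFD-BAT-Exos, in a pair in which none of the 8 triglyceride genes was apart.

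**Figure D5:**
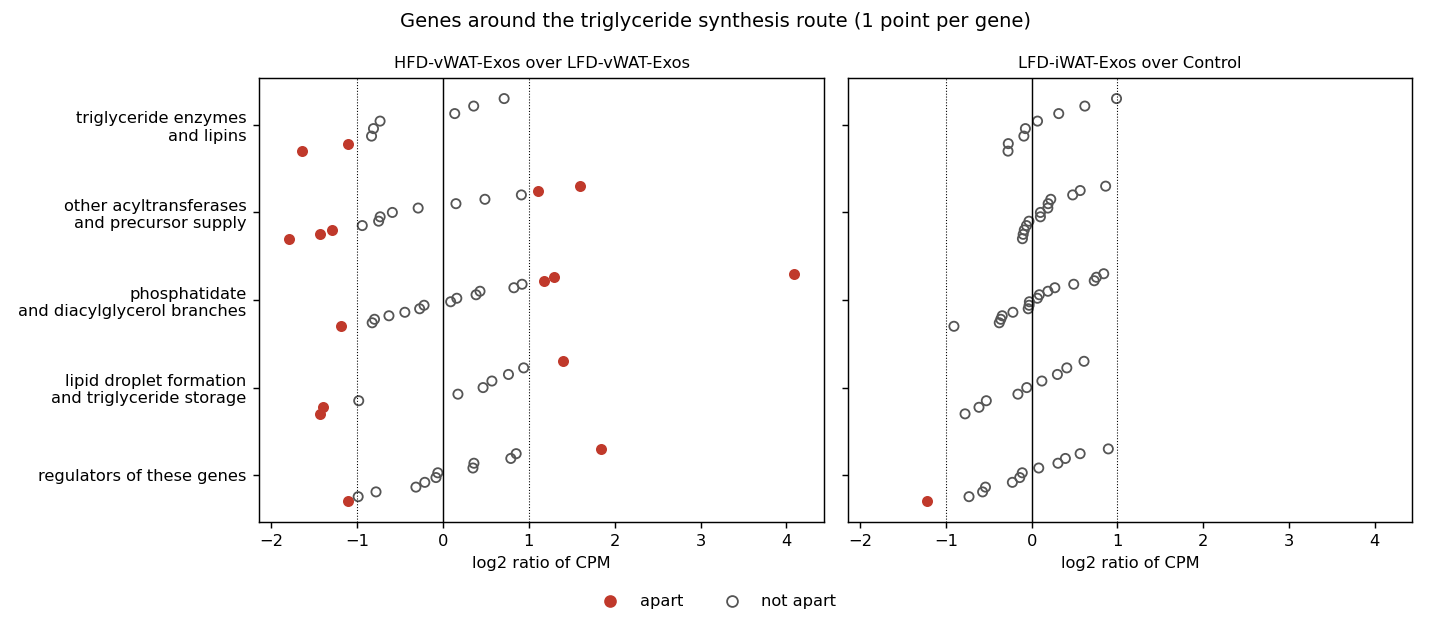
Log2 ratio of CPM (1 point per gene with at least 1 CPM in either library) for the 8 triglyceride enzymes and lipins and for 4 lists of neighbouring genes, with filled points for genes apart and dotted lines at -1 and 1. With HFD-vWAT-Exos over LFD-vWAT-Exos, every list holds points on both sides of 0 and the point farthest to the right is Dgki (40 against 0 counts), whose place depends on the prior count of 2, and with LFD-iWAT-Exos over the control 1 gene of the lists, Ppargc1a, is apart.

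The genes most like each of the 8 over the 7 libraries were found by the smallest root mean square difference of centred log2 CPM among 8252 genes with at least 10 CPM in every library. Lpin3 was under that level and has none. The closest was Tex264, a receptor for turnover of the endoplasmic reticulum, to Gpam, with a difference of 0.02, followed by Mkl2 at 0.04. Lpin2 was closest to Sgms2, a sphingomyelin synthase (0.04), and Tcp1 (0.06), and Lpin1 to Numb (0.06) and Ypel3 (0.07). Dgat1 was closest to Scap, the escort protein of SREBP (0.05), and Wsb2 (0.05), Dgat2 to Rcan1 (0.07) and Psmd8 (0.08), Agpat2 to Tmem104 (0.04) and Ric8 (0.07), and Agpat3 to Ccbl1 (0.07) and Endov (0.07). With 7 libraries, of which 1 stands apart, many genes come close to any such pattern.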

How the data were processed

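RNA of 7 libraries (strand-marked, paired-end) was sequenced by the authors, who per the study's methods used fastp for trimming, HISAT2 for mapping and StringTie for gene quantification. No versions are stated, and a human genome is named although the cells and gene identifiers are mouse, so the build and annotation are not given in the sources used here. The deposited counts are whole numbers of reads for each gene, left unscaled by the authors. The deposited FPKM values are these counts divided by the authors by gene length and library total.

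Counts were scaled with TMM factors (edgeR 4.0.16, R 4.3.3) from 12090 expressed genes, which were 0.950 in the LFD-vWAT-Exos library and between 1.00 and 1.01 elsewhere. Between 2 libraries no test was made. The log2 ratio (prior count 2) and an exact Clopper-Pearson 95% interval were computed for genes that reached 1 CPM in 1 or both libraries. Reads carry no molecular identifiers, so intervals cover counting error only. At these depths 3 counts equal 0.122 to 0.234 CPM. For diet, depot and exposure over several libraries, genes kept by filterByExpr entered edgeR's quasi-likelihood F test (p adjusted by Benjamini-Hochberg over all of them). Its SE was taken as the size of the log2 difference over the root of the F value. DESeq2 1.42.0 and, through limma 3.58.1, limma-voom served as other tools. Alternatives were total-count and DESeq2 scaling, other minimum levels, a prior count of 0.5, deposited FPKM plus 1, no filter, and leaving out libraries. The scripts were tested on simulated data.

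The genes and lists were chosen with earlier results of these data known. All 8 genes are named in each comparison, with up to 4 genes a list that were apart with at least 50 counts, by size of ratio.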

Additional observations from a re-analysis of the deposited data

Results flagged for a closer look

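The gap between LFD-vWAT-Exos and the next of the 6 exosome libraries, divided by their whole range on the log2 scale, was 0.869 for Gpam, 0.752 for Lpin2 and 0.672 for Lpin1, above Dixon's critical value of 0.625 for 6 values. LFD-vWAT-Exos was the high value each time. Chance passes this value in about 5% of groups. The 6 libraries are different treatments and not replicates, and LFD-vWAT-Exos passed it, high or low, in 38.1% of 12935 genes. Dgat2 (0.476) and Lpin3 (0.419) stayed under it.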

How the results depend on the processing

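No paired analysis was possible because each group holds 1 library, so no replicate numbers can be matched beyond the depot block of the diet fit and the diet block of the depot fits. Of 78 counts of genes apart under other scalings, minimum levels, prior counts or FPKM, 75 stayed within 1.5 times the reported count. In most comparisons the reported count was 0, so this share says little about stability. With deposited FPKM plus 1, 1 of 8 genes was apart between the HFD-vWAT-Exos and LFD-vWAT-Exos libraries (Lpin2), and 2 with LFD-vWAT-Exos against the control (Lpin1 and Lpin2). Of all genes, 2021 of 12619 and 2112 of 12589 were apart in these pairs with that setting, against 3741 and 3842 in the main setting. With DESeq2 size factors, 1 was apart with LFD-iWAT-Exos against the control (Lpin3) and 5 with LFD-vWAT-Exos against the control (with Gpam and Dgat2 added). With these factors 642 of 12432 and 3851 of 12589 of all genes were apart in the same pairs. Scaling by total counts moved the median log2 ratio of all genes to 0.12 for HFD-vWAT-Exos over LFD-vWAT-Exos and to -0.13 with LFD-vWAT-Exos against the control.

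In the fits, the number of the 8 genes called stayed at 0 under other tools, filters and scaling. When single libraries were left out it was 0 to 3 for vWAT against iWAT, with 3 only without HFD-vWAT-Exos. The fit without HFD-vWAT-Exos leaves LFD-vWAT-Exos alone for vWAT, so the spread between vWAT libraries is not measured. Calls were common among all genes in that fit, so they do not set these genes apart, and no conclusion is drawn from them. Without both vWAT libraries the diet difference was -0.18 for Agpat2, 0.33 for Lpin1 and 0.070 for Lpin2. Leaving out 1 vWAT library gives nearly the same values, because the depot block then takes up the other. The ends of the diet ranges below that equal these values are therefore not separate checks. Directions turned in some fits that left out 1 library. The log2 differences for diet then ranged from -0.18 to 0.31 for Agpat2, -0.00068 to 0.19 for Agpat3, -0.41 to 0.33 for Lpin1 and -0.91 to 0.070 for Lpin2. For AT-Exos against the control they ranged from -0.020 to 0.043 for Dgat1. For vWAT against iWAT they ranged from -0.35 to 0.53 for Agpat2, -0.11 to 0.22 for Agpat3, -0.27 to 1.47 for Lpin2, -0.019 to 0.68 for Lpin3 and -0.16 to 0.53 for Dgat2. For BAT against iWAT they ranged from -0.26 to 0.18 for Gpam, -0.20 to 0.39 for Agpat2, -0.24 to 0.58 for Lpin1, -0.88 to 0.31 for Lpin2, -0.79 to 0.10 for Lpin3 and -0.50 to 0.32 for Dgat2. The cause of these turns was not tested. The number of all genes called was 0 to 11 for diet and 0 to 11 for AT-Exos against the control when 1 library was left out.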

Other observations

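The order of these genes by level per length depends on the gene lengths used. The lengths implied by the deposited FPKM differ from the exon lengths of GENCODE M21: 3832 against 6664 bases for Gpam, 5725 against 9665 for Lpin1, 16737 against 12233 for Lpin2 and 5491 against 3056 for Dgat1. In the control, Lpin1 made up 63.3% of the summed FPKM of the 3 lipins with the deposited lengths and 42.3% with the GENCODE lengths. With LFD-vWAT-Exos the deposited FPKM put Lpin1 highest of the 8 genes (15.6 FPKM), and the GENCODE lengths put Lpin2 highest (11.9 FPKM). Dgat1 ranked 5 of 8 in the control with the deposited lengths and 1 of 8 with the GENCODE lengths. The summed deposited FPKM of the lipins was 27.6 with LFD-vWAT-Exos, against 10.9 to 13.2 in the other libraries. Comparisons of 1 gene between libraries do not depend on its length, except where 1 was added to the FPKM.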
